A study of Macaca mulatta with 5 samples.

Results

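Rhesus macaque embryonic stem cells of line 366.4 were taken through a staged culture aimed at serotonin neurons, and the comparison described here sets the FGF4-expanded cells (stage N2) against the selected neurospheres they came from (stage N1). N2 cells were collected after a further 7 to 9 days in DMEM/F12 medium with N2 supplement, to which FGF4 was added so that cells positive for Nestin would expand. N1 neurospheres had been grown for 7 to 9 days in the same medium and supplement, with no FGF4 named. They started from embryoid bodies (EB) of 6 to 8 days, which were made from stem cells of passage 13 kept on a mouse embryonic fibroblast layer (ESC). In a last stage (N3) the cells matured without FGF4. From here on the name N2 stands for the stage and not for the supplement. All stages carry the same single cell line, and each was read once, by 1 Affymetrix rhesus array, so the comparison rests on 2 of the 5 arrays of the series. Of 14132 named genes on the array, 10552 lay above the floor of 100 signal units on at least 1 of the 2 arrays and are called measured. With 1 array on each side no test is possible, and replicates cannot be used to check any difference. The added FGF4 and the added days cannot be told apart, because N2 cells had both. Spheres hold many kinds of cell, so a lower signal from fewer cells of a type and one from less RNA per cell cannot be told apart either.

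Fibroblast growth factors bind receptor tyrosine kinases on neural stem cells and act through the ERK cascade, which keeps many such cells dividing. The same cascade switches on its own inhibitors, the Sprouty proteins. Neural progenitors are marked by SOX and PAX factors and use Notch signalling between neighbours to hold back neuron formation. A cell that makes Delta ligands becomes a neuron, while its neighbour, in which HES genes are switched on, stays a progenitor. Embryoid bodies also form heart, muscle, blood, yolk sac and liver-like cells, and a culture that selects neural cells starts from such a mixture.

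In N2, 534 of the 10552 measured genes were at least 2-fold higher than in N1, which is 5.06% of them, and 689 were at least 2-fold lower, which is 6.53%. The counts for gene lists given further on are to be read against these 2 shares. At 4-fold the counts were 71 higher and 51 lower. The median log2 ratio of N2 over N1 across all measured genes was -0.04, the 10th percentile -0.82 and the 90th 0.71. Genes of neurons, synapses and neural progenitors stood towards the upper end, and the skeletal muscle list had as many members 2-fold higher as lower, 7 each of 26 measured. Haemoglobins, secreted proteins of liver and yolk sac, a keratin and heart genes stood at the lower end. For the neighbouring steps, 532 genes (5.15%) were 2-fold higher and 227 (2.20%) lower in N1 than in EB. In N3, 497 genes (4.78%) were 2-fold higher and 228 (2.19%) lower than in N2. These steps share the N1 or the N2 array with the comparison described here, and the difference between their counts was not tested.

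**Figure D1:**
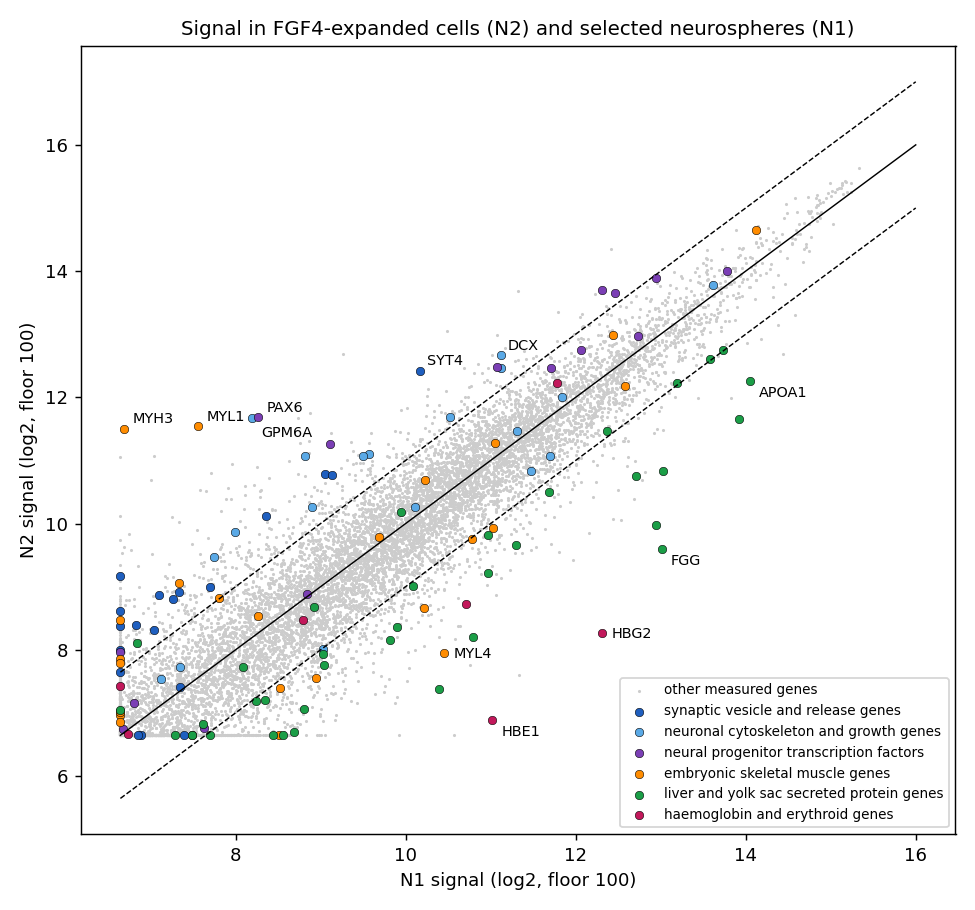
Signal in N2 (vertical axis) against signal in N1 (horizontal axis), both log2 with the floor of 100 applied, for the 10552 measured genes (1 array each). Solid line, equal signal; dashed lines, 2-fold. MYH3 (2906 in N2 and 103 in N1) lies far above the lines, and HBE1 (118 in N2 and 2077 in N1) far below.

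The 2 arrays differed in RNA integrity and in the signal of the spiked hybridisation controls. After scaling, the mean log2 signal of these controls was 12.46 in N2 and 11.88 in N1. The deposited 2% trimmed mean was 199.3 on both arrays. For the actin control, the signal near the 3' end over that near the 5' end was 25.21 in N2 and 5.43 in N1. For GAPDH this ratio was 7.10 in N2 and 1.69 in N1, and for EF1a 1.88 in N2 and 0.83 in N1. For each of these 3 controls N2 had the highest ratio of the 5 arrays. The part that RNA integrity has in any result given here was not tested. When the arrays were scaled to the spiked hybridisation controls in place of the trimmed mean, the median of all measured genes moved to -0.57 and the counts became 187 higher and 2543 lower. With the arrays set to equal medians the counts were 659 higher and 545 lower. List medians between 0 and about that size therefore change sign with the scaling, and both values are given for each. Each gene is represented by the brightest of its probe sets, and 4198 genes had a second measured one. Over these genes the median log2 ratio was 0.02 for the brightest and -0.24 for the second brightest. The second probe set had the same direction for 152 of 214 genes at least 2-fold higher and for 176 of 213 at least 2-fold lower. It passed 2-fold that way for 66 of the higher genes and for 71 of the lower ones. Over all 4198 genes, 3.88% of second probe sets were 2-fold higher and 13.9% 2-fold lower. Where a named gene has other measured probe sets, their log2 ratios of N2 over N1 follow in brackets.

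**Figure D2:**
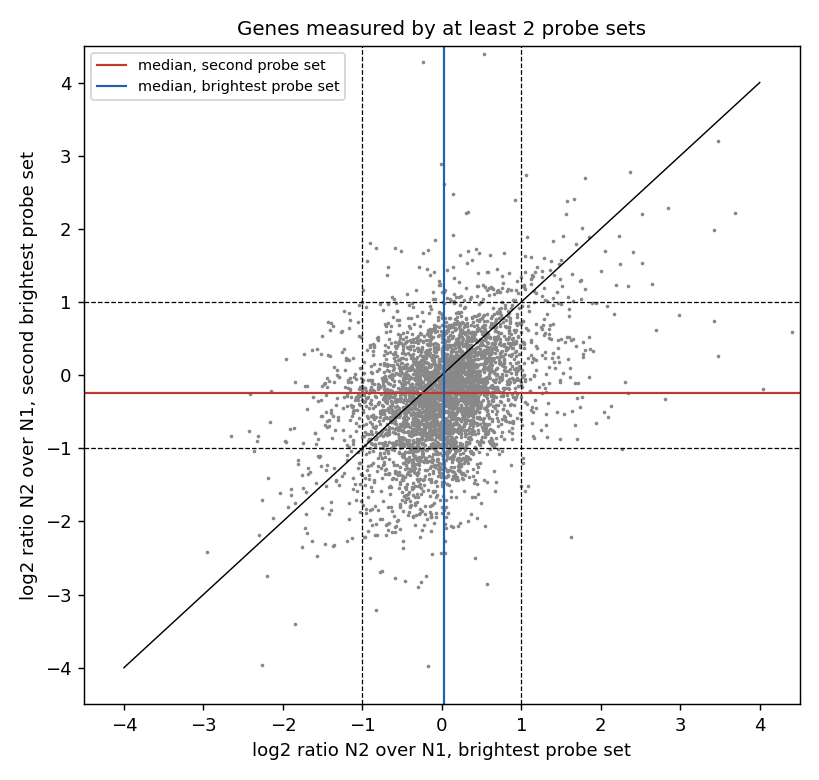
Log2 ratio of N2 over N1 from the second brightest probe set (vertical axis) against that from the brightest (horizontal axis), for 4198 genes. Dashed lines mark 2-fold; the second probe sets centre on -0.24 (red line) and the brightest on 0.02 (blue line), and Pearson's r across these genes, which are not independent replicates, was 0.40.

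The labels title N2 as proliferating serotonin neurons, and the genes that define such neurons were looked up first. TPH2, which makes the rate-limiting enzyme of serotonin synthesis in the brain, had signals of 7.3 at ESC, 16.2 at EB, 8.3 at N1, 5.0 at N2 and 5.4 at N3. LMX1B, a transcription factor gene that serotonin neurons need, was 37.3 in N2 and 16.1 in N1. FEV, the factor that switches on the serotonin genes, was 66.0 in N2 and 121 in N1. TPH2 and LMX1B thus lay below the floor on both arrays, and FEV was above it in N1 and below it in N2. SLC18A2, which loads serotonin into vesicles, was 141 in N2 and 178 in N1. GATA2 and GATA3 act upstream in serotonin neurons and also in blood and trophoblast. GATA2 was 128 in N2 and 200.3 in N1 (other probe sets -0.65 and -0.06), and GATA3 was 1437 in N2 and 1418 in N1 (other probe set 0.20). The serotonin neuron transporter gene SLC6A4 and the synthesis gene DDC were not analysed here. Of the 17 genes of the serotonin list with a probe set, TPH1, TPH2, LMX1B, NKX6-1 and HTR1A lay below the floor on both arrays. Of the 12 measured, 0 were at least 2-fold higher in N2 and 0 at least 2-fold lower (median log2 ratio -0.31). The signals of the 4 defining serotonin markers with a probe set summed to 249 in N2 and 324 in N1. With TPH2, LMX1B and FEV below the floor in N2, these signals do not show serotonin neurons, and the stage is called by its culture step. TPH2 and LMX1B lay below the floor on all 5 arrays, so the series does not show that their probe sets can detect these transcripts. That the cells lack these transcripts therefore cannot be read from these values.

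Several neural progenitor transcription factors were higher in N2. Of 15 measured members of that list, 6 were at least 2-fold higher in N2 and 0 at least 2-fold lower, where 5.06% and 6.53% of all measured genes were. Their median log2 ratio was 0.76 (0.18 with hybridisation-control scaling). PAX6, a paired-box factor of cortical, eye and spinal cord progenitors, had signals of 753 at ESC, 419 at EB, 307 at N1, 3301 at N2 and 3322 at N3. N2 was thus 10.8-fold higher than N1, and its other probe set gave a log2 ratio of 1.98. SOX3, a SoxB1 factor that holds cells in the progenitor state, had a signal of 2445 in N2 and 551 in N1 and was 4.44-fold higher. SOX2, the SoxB1 factor shared by pluripotent and neural stem cells, had signals of 19736 at ESC, 3413 at EB, 5056 at N1, 13336 at N2 and 14978 at N3. In N2 it was 2.64-fold higher than in N1, and its other probe sets gave -0.18 and 0.30, so its difference rests on the brightest one. ZIC2, a zinc-finger factor of the neural plate, had a signal of 5688 in N2 and 2158 in N1 and was 2.64-fold higher. NR2F1, an orphan nuclear receptor of the developing brain, had a signal of 12919.5 in N2 and 5628 in N1 and was 2.30-fold higher (other probe set 1.48). POU3F1, a POU-domain factor of neural progenitors, had a signal of 249 in N2 and 63.5 in N1 and was at least 2.49-fold higher. Other members differed by less than 2-fold. SOX11, a factor of newly born neurons, was 15168 in N2 and 7859.5 in N1 (other probe sets -0.58 and 0.29). SOX4, its close relative, was 16321 in N2 and 14075 in N1 (other probe sets 0.58 and 0.66). MEIS2, a cofactor of HOX and PAX proteins, was 8019 in N2 and 6811 in N1. SOX9, a factor of glia-forming progenitors, was near the floor on both arrays, at 108 in N2 and 102 in N1. SOX21, which promotes neuron formation against the SoxB1 factors, was 109 in N2 and 197 in N1. Nestin and SOX1 were not analysed here.

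Radial glia are elongated progenitors that later give rise to astrocytes and share several genes with them. In the radial glia and astrocyte list 6 were at least 2-fold higher in N2 and 1 at least 2-fold lower, out of 14 measured (median 0.56; -0.02 with hybridisation-control scaling). SLC1A2, a glutamate transporter of astrocytes, had a signal of 653 in N2 and 149 in N1 and was 4.39-fold higher. SLC1A3, the glutamate transporter of radial glia, had a signal of 2489 in N2 and 761 in N1 and was 3.27-fold higher (other probe set -0.11), and its probe sets did not have the same sign. PTN, a secreted growth factor of the nervous system, had a signal of 6508 in N2 and 2077 in N1 and was 3.13-fold higher (other probe sets 0.50 and 0.54). GPM6B, a membrane protein of neurons and glia, had a signal of 4625 in N2 and 1751 in N1 and was 2.64-fold higher (other probe sets 0.11, 0.42, 0.78, 0.96 and 1.38). TNC, the matrix glycoprotein tenascin C, had a signal of 1754 in N2 and 675 in N1 and was 2.60-fold higher. S100B, a calcium-binding protein of glia, had a signal of 741 in N2 and 289 in N1 and was 2.57-fold higher. Of these 6, SLC1A2, SLC1A3, GPM6B and TNC had still higher values in N3, with SLC1A2 at 2340.0 and SLC1A3 at 4453. GFAP, the intermediate filament of astrocytes, was 686 in N2 and 742 in N1 (other probe set 0.63). VIM, the filament protein of progenitors and mesenchyme, was 34102 in N2 and 22738 in N1 (other probe sets 0.32, 0.57 and 0.69). ALDH1L1, an astrocyte enzyme also made in liver, had a signal of 79.8 in N2 and 213 in N1 and was at least 2.13-fold lower.

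Of 21 measured Notch pathway genes, 4 were at least 2-fold higher in N2 and 0 at least 2-fold lower (median 0.35; -0.23 with hybridisation-control scaling and -0.23 with the second brightest probe sets). The higher genes were 2 ligands and 2 HES genes. DLL1, the Delta ligand of cells leaving the progenitor state, had a signal of 3780.4 in N2 and 1221 in N1 and was 3.10-fold higher (other probe set 0.49). DNER, a Delta-like membrane protein of neurons, had a signal of 1902 in N2 and 305 in N1 and was 6.24-fold higher, and was 5577 in N3. Other ligands differed by less than 2-fold. JAG1 was 2087 in N2 and 1055 in N1 (other probe set 0.41), and DLL3 was 348 in N2 and 274 in N1. Among the receptors, NOTCH3 was 2331 in N2 and 1212 in N1 (other probe set -0.25), and NOTCH2 was 1803 in N2 and 1425 in N1 (other probe sets -0.38, 0.06 and 0.39). HES5, the Notch target of neural progenitors, had signals of 5.3 at ESC, 95.0 at EB, 274 at N1, 1203 at N2 and 2586 at N3. It was 4.39-fold higher in N2 than in N1 on its brightest probe set, while the other gave a log2 ratio of -0.42. HES6, which counters HES1 and promotes neuron formation, had a signal of 1886 in N2 and 853 in N1 and was 2.21-fold higher. HES1, a Notch target found in many tissues, was 673 in N2 and 479.9 in N1. HEY1, a target in vessels and heart, was 2026 in N2 and 2472 in N1.

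Among factors that commit cells to the neuron fate, 4 were at least 2-fold higher in N2 and 0 at least 2-fold lower, out of 15 measured (median 0.68; 0.07 with hybridisation-control scaling). A further 7 lay below the floor on both arrays, among them NEUROG2 and NEUROD4. MYT1L, a zinc-finger factor that stabilises neuron identity, had a signal of 542 in N2 and 53.1 in N1 and was at least 5.42-fold higher. It reached 1801 in N3. EBF proteins act in neurons that have left the cell cycle. EBF2 had a signal of 1471 in N2 and 312 in N1 and was 4.72-fold higher (other probe set 1.52). EBF1 had a signal of 5630.1 in N2 and 2011 in N1 and was 2.80-fold higher (other probe set -0.07), so its difference rests on 1 probe set. ELAVL4, a neuronal RNA-binding protein, had a signal of 3779.8 in N2 and 1344 in N1 and was 2.81-fold higher (other probe set 1.32). ELAVL2, its relative, was 5345 in N2 and 2985 in N1 (other probe set -0.06). The remaining factors were nearer to level. INSM1, a factor of neuroendocrine cells and young neurons, was 2759.8 in N2 and 1668 in N1. ISL1, a factor of motor and sensory neurons and also of heart progenitors, was 4794 in N2 and 3550.3 in N1. NEUROG1, which starts neuron formation in sensory lineages, was 11.9 in N2 and 126 in N1.

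Genes of the neuronal cytoskeleton and of axon growth included more large differences. Of 19 measured, 10 were at least 2-fold higher in N2 and 1 at least 2-fold lower (median 1.16; 0.58 with hybridisation-control scaling and 0.11 with the second brightest probe sets). GPM6A, a membrane glycoprotein of growing axons, had signals of 231 at ESC, 132 at EB, 293 at N1, 3246 at N2 and 6305 at N3. It was 11.1-fold higher in N2 than in N1, and its other measured probe set gave a log2 ratio of 3.20. L1CAM, an axonal adhesion molecule, had a signal of 2140.2 in N2 and 451 in N1 and was 4.74-fold higher. DCX, the microtubule-binding protein of migrating neurons, had signals of 186 at ESC, 535 at EB, 2222 at N1, 6488 at N2 and 10607 at N3. The step in DCX was 2.92-fold higher for N2. DCLK1, its relative, had a signal of 2152 in N2 and 725 in N1 and was 2.97-fold higher (other probe sets 1.68 and 2.38). Growth cones carry GAP43, DPYSL3, STMN4 and CRMP1. GAP43 had a signal of 5666 in N2 and 2233 in N1 and was 2.54-fold higher (other probe set 0.11). DPYSL3 had a signal of 2194 in N2 and 756 in N1 and was 2.90-fold higher. STMN4 had a signal of 1224 in N2 and 476 in N1 and was 2.57-fold higher. CRMP1 had a signal of 3282 in N2 and 1472 in N1 and was 2.23-fold higher. Each of these 4 was brighter again in N3, CRMP1 at 10534 and GAP43 at 8583. SCG2 and CHGB are granins that fill dense-core secretory vesicles. SCG2 had a signal of 936 in N2 and 254 in N1 and was 3.68-fold higher, and CHGB had a signal of 712 in N2 and 214 in N1 and was 3.32-fold higher.

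Several widely used neuron markers differed by less than 2-fold. STMN2, a tubulin-binding protein of growing axons, had signals of 936 at ESC, 1986 at EB, 12594 at N1, 13995 at N2 and 24814 at N3, so that it was already bright in N1. TUBB3, the neuronal beta-tubulin, was 1819 in N2 and 2852 in N1 (other probe sets -0.61 and 0.47). It was 7589.9 in N3. UCHL1, a ubiquitin hydrolase abundant in neurons, was 4131 in N2 and 3672 in N1 (other probe sets -0.59 and 0.32). MAP1B, a microtubule-associated protein of axons, was 2138 in N2 and 3332 in N1. NCAM1, the neural cell adhesion molecule, was 2828 in N2 and 2545 in N1 (other probe sets -0.24, -0.11, 0.05, 0.14, 0.48, 0.48 and 1.12). RTN1, a reticulon of the neuronal endoplasmic reticulum, was the 1 lower member, at 258 in N2 and 521 in N1, which is 2.02-fold lower.

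With the main settings the synaptic list had the highest median of the 29 lists. This rank was not kept throughout. With the values as deposited its median was 0.92, against 1.34 for the neuronal cytoskeleton list and 0.95 for the neural progenitor list. With a floor of 200 it was 1.22, against 1.25 for the neuronal cytoskeleton list. On the second brightest probe sets the proneural and neural progenitor lists had higher medians, at 0.63 and 0.48, against 0.42. Of 19 measured members, 15 were at least 2-fold higher in N2 and 0 at least 2-fold lower (median 1.56; 1.00 with hybridisation-control scaling and 0.42 with the second brightest probe sets). Over all measured genes 5.06% were higher and 6.53% lower. Of the 15 higher genes, 5 were below the floor in N1, so that their ratios are lower bounds. These 5 count as measured through N2 alone. Over the members above the floor on both arrays the median was 1.58. The members of this list, as of the others, were chosen with earlier results of these data known. SYT4, a synaptotagmin of secretory vesicles, had signals of 12.2 at ESC, 38.2 at EB, 1149 at N1, 5489.8 at N2 and 8174 at N3. It was 4.78-fold higher in N2 than in N1. SYT1, the calcium sensor of fast release, had a signal of 1768 in N2 and 529.7 in N1 and was 3.34-fold higher (other probe sets 0.00, 1.27 and 1.29). SV2 proteins are glycoproteins of the synaptic vesicle. SV2A had a signal of 1112 in N2 and 328 in N1 and was 3.39-fold higher. SV2B had a signal of 448 in N2 and 154 in N1 and was 2.92-fold higher. SV2C had a signal of 576 in N2 and 72.7 in N1 and was at least 5.76-fold higher. RAB3A, a vesicle GTPase, had a signal of 390.3 in N2 and 38.8 in N1 and was at least 3.90-fold higher. CPLX2, a complexin that controls fusion, had a signal of 317 in N2 and 132 in N1 and was 2.41-fold higher. Not all release genes were among them. VAMP2, the main vesicle SNARE of brain synapses, was 70.0 in N2 and 118 in N1. STX1A, the syntaxin of the plasma membrane, was 46.8 in N2 and 169 in N1.

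Transmitter genes of the list were those of GABA and glutamate. GAD1 and GAD2 make the enzymes of GABA synthesis. GAD1 had signals of 7.2 at ESC, 526 at EB, 162 at N1, 484 at N2 and 2343 at N3, and was 2.99-fold higher in N2 than in N1 (other probe set 0.22). GAD2 had a signal of 1737 in N2 and 560.1 in N1 and was 3.10-fold higher (other probe set -0.50), so that its probe sets differed in sign. Of the glutamate receptor subunits, 3 were higher, while GRIN1 lay below the floor on both arrays, as did SLC17A7, a vesicular glutamate transporter. GRIA4 had a signal of 466 in N2 and 137 in N1 and was 3.40-fold higher. GRIK2 had a signal of 335 in N2 and 114 in N1 and was 2.95-fold higher. GRIA1 had a signal of 509 in N2 and 208 in N1 and was 2.45-fold higher. Of the GABA receptor subunits, GABRB1 had a signal of 256 in N2 and 83.5 in N1 and was at least 2.56-fold higher (other probe set 0.63), whereas GABRA2 was 92.4 in N2 and 115 in N1. NPY, a neuropeptide often made by GABA neurons, had a signal of 330.4 in N2 and 67.7 in N1 and was at least 3.30-fold higher. In N3 it was 2861.

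**Figure D3:**
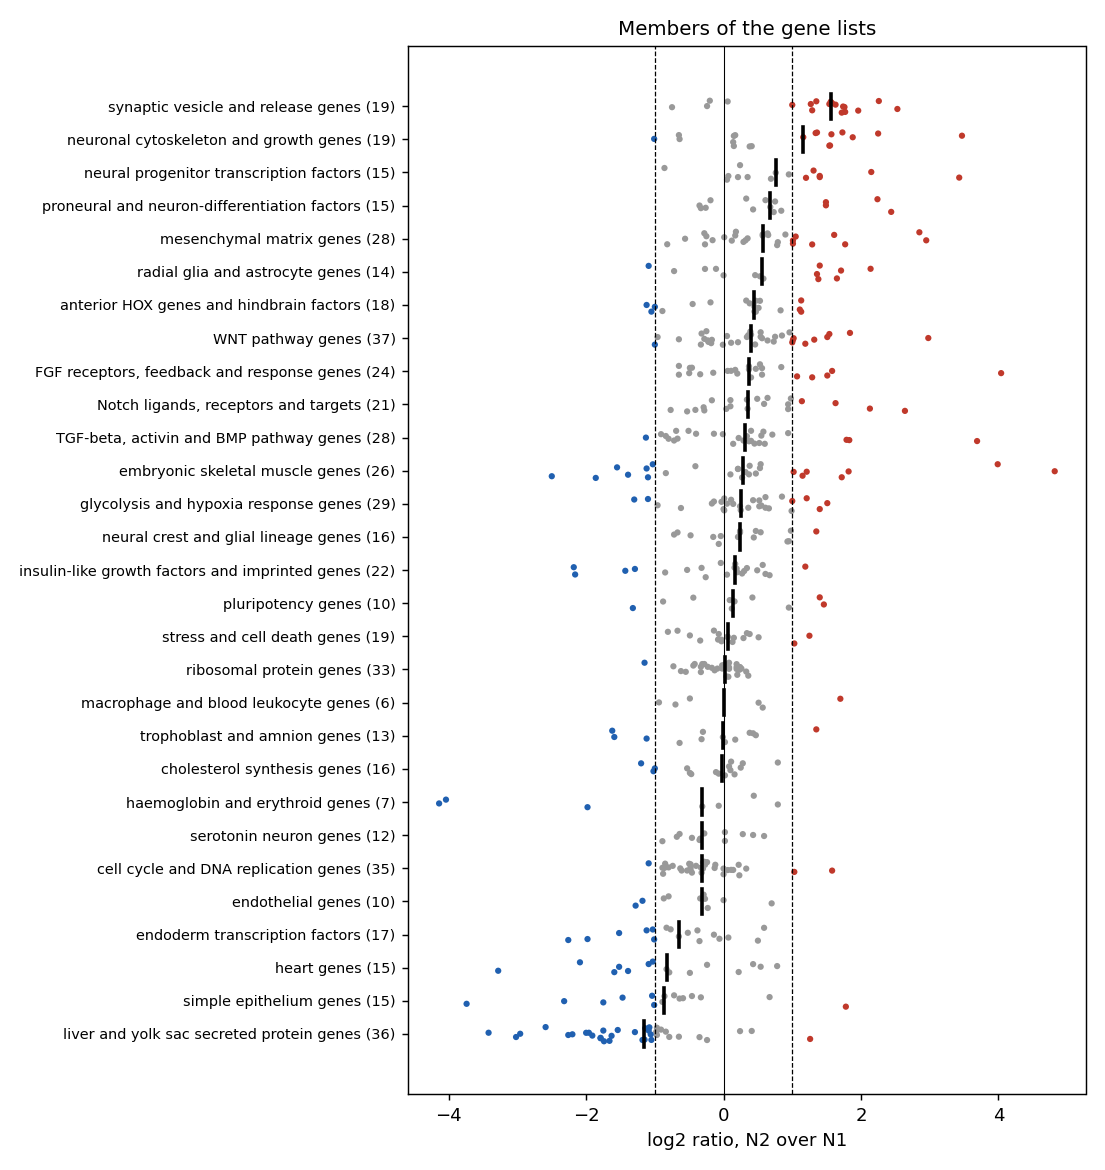
Log2 ratio of N2 over N1 (horizontal axis) for each measured member of the 29 gene lists, with the number measured in brackets; black bars are list medians, dashed lines 2-fold, red and blue points members at least 2-fold higher and lower in N2. Synaptic genes (median 1.56) lie at the top and liver and yolk sac secreted protein genes (median -1.16) at the bottom. With hybridisation-control scaling, points well above the floor on both arrays move down by about the same amount. Points held at the floor on 1 array move down by less, and medians between 0 and about 0.57 turn negative.

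Genes that mark position along the hindbrain and neck differed in both directions. Of 18 measured members of the HOX and hindbrain list, 3 were at least 2-fold higher in N2 and 3 at least 2-fold lower. Their median of 0.45 became -0.13 with hybridisation-control scaling and -0.21 with the second brightest probe sets. HOXA5, a HOX gene of the neck level, had a signal of 3267 in N2 and 1497 in N1 and was 2.18-fold higher. HOXB3, of the hindbrain, had a signal of 132 in N2 and 264 in N1 and was 2.0-fold lower. HOXA2, HOXA3 and HOXB5 were within 2-fold. HOXA2 was 252 in N2 and 185 in N1, and HOXA3 was 1278 in N2 and 934 in N1. HOXB5 was 1587 in N2 and 1267 in N1 (other probe set -0.08). EGR2, a hindbrain segment factor that growth factors also induce, had a signal of 316 in N2 and 145 in N1 and was 2.19-fold higher. PAX8, a factor of the midbrain-hindbrain boundary, kidney and thyroid, had a signal of 216 in N2 and 89.4 in N1 and was at least 2.16-fold higher (other probe sets -0.21 and 0.28), with signs that differed between probe sets. Retinoic acid sets HOX boundaries, and 2 genes of its pathway were lower. RARB, a retinoic acid receptor and target, had a signal of 137 in N2 and 296 in N1 and was 2.17-fold lower (other probe set -0.89). CRABP2, which carries retinoic acid to the nucleus, had a signal of 3433 in N2 and 7129 in N1 and was 2.08-fold lower. CRABP1, the related carrier of the early nervous system, was 16495 in N2 and 11922 in N1. CYP26A1, which breaks retinoic acid down, was 338 in N2 and 191 in N1.

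FGF4 was the factor added at this step. Of 24 measured members of the FGF list, 5 were at least 2-fold higher in N2 and 0 at least 2-fold lower. Over all measured genes these shares were 5.06% and 6.53%. The list median was 0.37 (-0.19 with hybridisation-control scaling). SPRY2, a feedback inhibitor of the receptors' signal, had signals of 3469.6 at ESC, 1959.8 at EB, 1791 at N1, 5350.2 at N2 and 8842 at N3. N2 was 2.99-fold higher than N1 (other probe set 0.52), and N3, which had no FGF4, was brighter still. SPRY4, another Sprouty inhibitor, had a signal of 416 in N2 and 170.4 in N1 and was 2.44-fold higher. SPRY1 was within 2-fold, at 987 in N2 and 686 in N1. FGFBP3, which carries FGFs off the matrix, had signals of 516 at ESC, 356 at EB, 131 at N1, 2155 at N2 and 2218 at N3. It was 16.4-fold higher in N2 than in N1, but its other measured probe set gave -0.19. FGF13 and FGF14, also among the 5 higher members, stand in the list by family, but they stay inside neurons and modulate sodium channels. FGF13 had a signal of 4623 in N2 and 2209 in N1 and was 2.09-fold higher, and FGF14 had a signal of 479.8 in N2 and 168 in N1 and was 2.85-fold higher (other probe sets 0.65 and 1.21). The receptors were within 2-fold. FGFR2 was 11035 in N2 and 6166 in N1 (other probe sets -0.21, -0.15, 0.45 and 0.65). FGFR3 was 1512 in N2 and 1092 in N1 (other probe set -1.06). FGFR1 was 208 in N2 and 327 in N1 (other probe set 0.60). Other genes of the list that growth factor signals can induce did not pass 2-fold, with values on either side of N1. ETV1, an ETS factor, was 2000.5 in N2 and 1548 in N1 (other probe set -0.44). The ERK inhibitor gene SPRED2 was 1377 in N2 and 1042 in N1, and the phosphatase gene DUSP4 was 113 in N2 and 84.3 in N1. ETV4, MYC, CCND1 and FOS had lower values in N2. ETV4 was 204 in N2 and 282 in N1. MYC was 289 in N2 and 455 in N1. CCND1 was 544 in N2 and 766 in N1, and FOS was 448 in N2 and 567 in N1. FGF4 itself and FGF2 lay below the floor on both arrays, and DUSP6 and ETV5 were not analysed here.

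Of 37 measured WNT pathway genes, 9 were at least 2-fold higher in N2 and 0 at least 2-fold lower (median 0.40; -0.04 with hybridisation-control scaling and -0.06 with the second brightest probe sets). These 9 are 24.3% of the list, against 5.06% of all measured genes. Ligands, receptors and secreted inhibitors were all among the higher ones. LGR5, a receptor for R-spondins and itself a WNT target, had a signal of 1969.9 in N2 and 249 in N1 and was 7.90-fold higher (other probe set 0.83). RSPO1, an R-spondin, had a signal of 574 in N2 and 229 in N1 and was 2.50-fold higher. WNT7A, a ligand of the nervous system, had a signal of 284 in N2 and 18.8 in N1 and was at least 2.84-fold higher. FZD10, a receptor, had a signal of 6213 in N2 and 2723 in N1 and was 2.28-fold higher. WIF1 binds WNT ligands and DKK1 blocks their coreceptor. WIF1 had a signal of 991 in N2 and 277 in N1 and was 3.58-fold higher, and DKK1 had a signal of 1992 in N2 and 683 in N1 and was 2.92-fold higher. The related genes DKK2, DKK3 and SFRP2 were just past 2-fold. DKK2 had a signal of 794 in N2 and 393 in N1 and was 2.02-fold higher (other probe set -0.16). DKK3 had a signal of 3731 in N2 and 1844 in N1 and was 2.02-fold higher (other probe sets -0.06 and 0.74). SFRP2 had a signal of 7458 in N2 and 3719 in N1 and was 2.01-fold higher. AXIN2, a direct target of the pathway, was 2617 in N2 and 1673 in N1 (other probe sets -0.92 and -0.51).

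In the TGF-beta, activin and BMP list 3 were at least 2-fold higher in N2 and 1 at least 2-fold lower, of 28 measured (median 0.31; -0.22 with hybridisation-control scaling and -0.28 with the second brightest probe sets). The higher share was 10.7% and the lower 3.57%, against 5.06% and 6.53% of all measured genes. INHBA, the subunit of activin A, had signals of 205 at ESC, 82.2 at EB, 128 at N1, 1655 at N2 and 1614 at N3. It was 12.9-fold higher in N2 than in N1, and its other probe set gave a log2 ratio of 2.22. TGFB3, a TGF-beta ligand, had a signal of 511 in N2 and 144 in N1 and was 3.55-fold higher. BMP6, a BMP ligand, had a signal of 346 in N2 and 61.3 in N1 and was at least 3.46-fold higher. BMP4 and BMP2, ligands that oppose neural fate, did not pass 2-fold. BMP4 was 1271 in N2 and 2099 in N1, and BMP2 was 503 in N2 and 945 in N1 (other probe set -1.37). ID1, a target of BMP signals, had a signal of 2466 in N2 and 5402 in N1 and was 2.19-fold lower. ID3, another such target, was 4206 in N2 and 6678 in N1 (other probe set -0.51).

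Muscle genes differed in both directions. In the skeletal muscle list 7 were at least 2-fold higher in N2 and 7 at least 2-fold lower, of 26 measured (median 0.29; -0.21 with hybridisation-control scaling and -0.15 with the second brightest probe sets). Each share was 26.9%, against 5.06% higher and 6.53% lower over all measured genes. Of the 7 higher members, 3 were below the floor in N1 and count as measured through N2 alone. In the same way 1 of the 7 lower members was measured through N1 alone. Over the members above the floor on both arrays the median was 0.21. Most of the higher members belong to embryonic and fast skeletal fibres. MYH3, the embryonic skeletal myosin heavy chain, had signals of 38.3 at ESC, 14.2 at EB, 103 at N1, 2906 at N2 and 14054 at N3. It was 28.3-fold higher in N2 than in N1, the largest ratio that is not a bound. MYL1, the fast skeletal light chain, had signals of 45.0 at ESC, 145 at EB, 188 at N1, 2974 at N2 and 12049 at N3, and was 15.8-fold higher. TNNC2, fast troponin C, had a signal of 354 in N2 and 14.8 in N1 and was at least 3.54-fold higher. MYH8, the perinatal myosin, had a signal of 231 in N2 and 27.5 in N1 and was at least 2.31-fold higher. MYOD1, the factor that specifies skeletal muscle, had a signal of 222 in N2 and 13.1 in N1 and was at least 2.21-fold higher. CASQ2 and ACTN2 are shared with the heart. CASQ2, a calcium store protein, had a signal of 529.9 in N2 and 161 in N1 and was 3.30-fold higher. ACTN2, the actinin of the Z-disc, had a signal of 453 in N2 and 223 in N1 and was 2.03-fold higher (other probe sets 0.45, 0.49 and 0.63). KLHL41, a kelch protein of the sarcomere outside the list, had a signal of 787 in N2 and 103 in N1 and was 7.67-fold higher. All of these were brighter again in N3, where MYH8 stood at 983, TNNC2 at 3537 and MYOD1 at 322. CHRNA1, the muscle acetylcholine receptor subunit, was 115 in N2 and 7.3 in N1. TNNT3, the fast troponin T, was at 29.2 in N2 and 179 in N1 and so did not follow the other fast fibre genes. MYF5, MYF6, PAX7 and TTN lay below the floor on both arrays, and MYOG and ACTA1 were not analysed here. The signals of 5 defining skeletal muscle markers summed to 6255 in N2 and 567 in N1, and MYH3 and MYL1 made up most of the N2 sum. Of the other markers, MYOD1 was at 222 in N2, and CKM was at 124.5 in N2 and 84.8 in N1 (other probe set -0.15). TNNT3 had a lower value in N2 than in N1.

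The 7 lower members of that list are genes of heart or slow muscle. MYL4, the atrial and embryonic light chain, had a signal of 248 in N2 and 1402 in N1 and was 5.65-fold lower. TNNC1, the troponin C of heart and slow fibres, had a signal of 51.0 in N2 and 364 in N1 and was at least 3.64-fold lower. TNNI1, the slow troponin I, had a signal of 406 in N2 and 1185 in N1 and was 2.92-fold lower. MB, myoglobin, had a signal of 168 in N2 and 367 in N1 and was 2.18-fold lower. TNNT1, the slow troponin T, had a signal of 977 in N2 and 2089 in N1 and was 2.14-fold lower (other probe set -0.34). TNNI3 and TNNT2, the cardiac troponins I and T, stand in the heart list too. TNNI3 had a signal of 188 in N2 and 492 in N1 and was 2.62-fold lower, and TNNT2 had a signal of 864 in N2 and 1759 in N1 and was 2.04-fold lower (other probe set -1.49). In the heart list 0 were at least 2-fold higher in N2 and 7 at least 2-fold lower, of 15 measured (median -0.83). MYL7, the atrial light chain, had signals of 324 at ESC, 9531 at EB, 7044 at N1, 1656 at N2 and 1833 at N3. It was 4.25-fold lower in N2 than in N1. MYL3, the ventricular light chain, had a signal of 56.8 in N2 and 971 in N1 and was at least 9.71-fold lower. HAND1 and GATA4 are factors of the early heart. HAND1 had a signal of 1295 in N2 and 3897 in N1 and was 3.01-fold lower, and GATA4 had a signal of 44.8 in N2 and 286 in N1 and was at least 2.86-fold lower (other probe set -0.56). NPPA, the atrial natriuretic peptide, had a signal of 375 in N2 and 798 in N1 and was 2.13-fold lower. MYH6, the atrial myosin heavy chain, was within 2-fold at 855 in N2 and 1197 in N1 (other probe set 0.50). TBX5, a factor of the early heart and forelimb, was 370.2 in N2 and 216 in N1, and CSRP3, a protein of the Z-disc, was 235 in N2 and 202 in N1. ACTC1, the actin shared by heart and embryonic skeletal muscle, was 8084 in N2 and 5561 in N1. In N3 the lower troponin genes were brighter again, TNNI1 at 2239, whereas MYL7 was 1833.

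**Figure D4:**
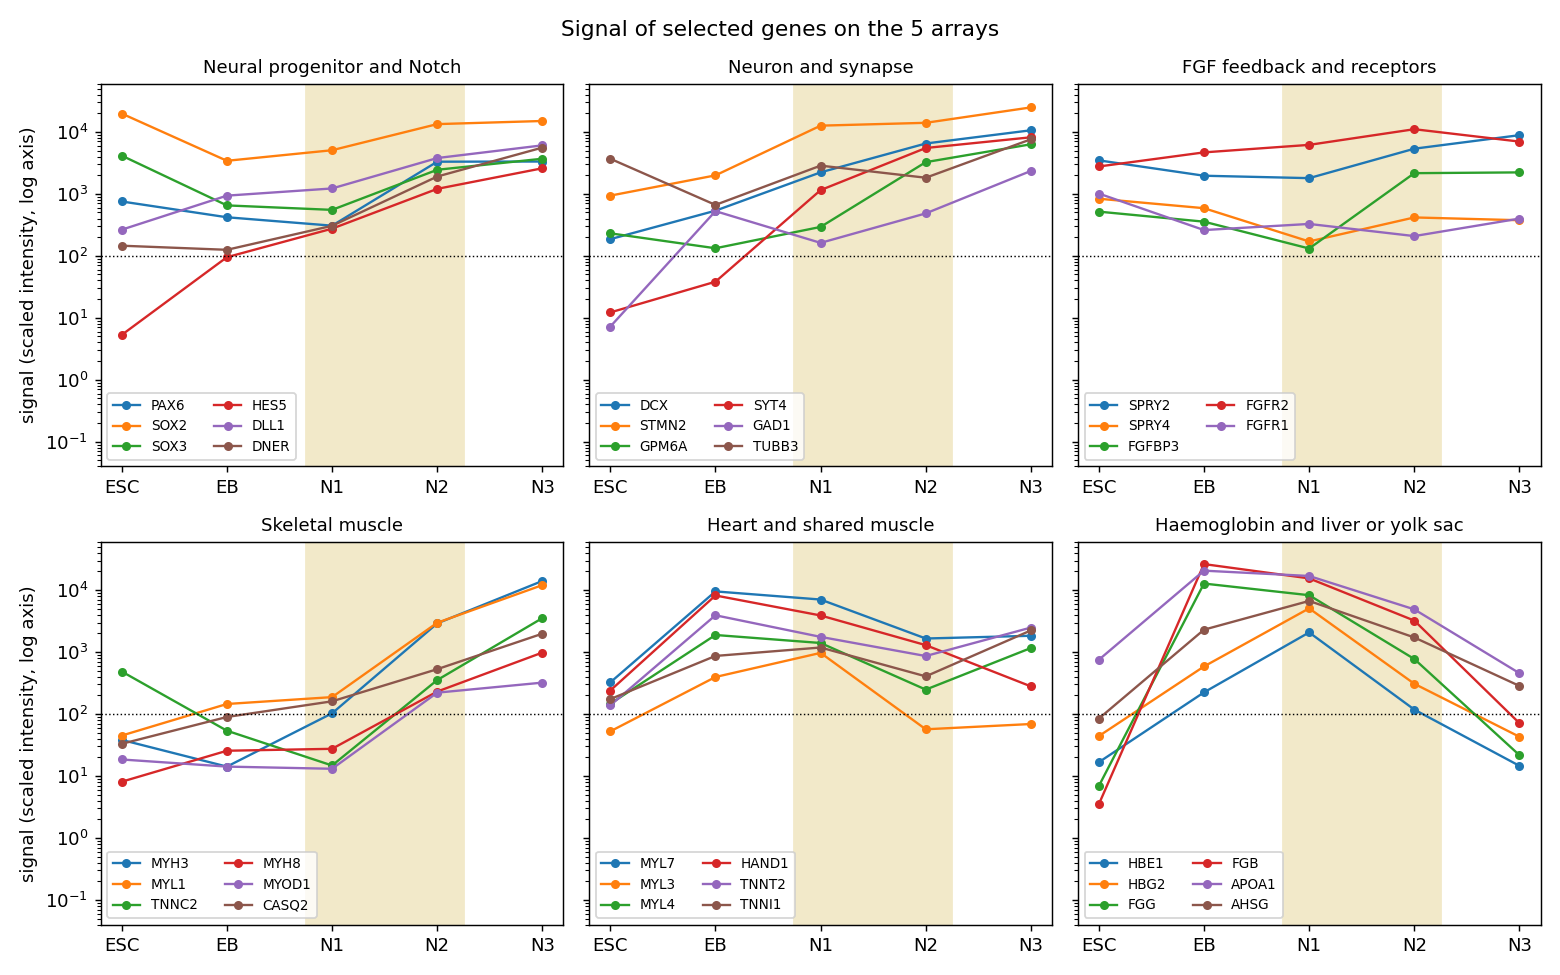
Signal (log axis) on each of the 5 arrays in stage order for genes of 6 groups, 1 array per stage; shading marks N1 and N2, and the dotted line is the floor of 100. PAX6, MYH3 and SYT4 were 3301, 2906 and 5489.8 in N2, against 307, 103 and 1149 in N1, while HBE1 and FGG were 118 and 773 in N2, against 2077 and 8274 in N1.

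The largest ratios below N1 were those of haemoglobins. HBE1, the embryonic beta-type globin, had signals of 16.7 at ESC, 224 at EB, 2077 at N1, 118 at N2 and 14.6 at N3. It was 17.6-fold lower in N2 than in N1. HBG2, a fetal gamma globin, had signals of 44.1 at ESC, 586 at EB, 5079 at N1, 308 at N2 and 43.0 at N3, and was 16.5-fold lower. Its probe set can bind related transcripts, and its near-identical copy HBG1 cannot be told apart from it. HBA, an alpha globin outside the list, had a signal of 75.9 in N2 and 1513 in N1 and was at least 15.1-fold lower. All 3 globins were brighter in N1 than on any other array. BLVRB, a biliverdin reductase of red cells and liver, had a signal of 425 in N2 and 1674 in N1 and was 3.94-fold lower. In the haemoglobin and erythroid list 0 were at least 2-fold higher in N2 and 3 at least 2-fold lower, of 7 measured. Their median of -0.31 became -1.98 with the values as deposited and with a floor of 200, and -1.14 over the members above the floor on both arrays. The erythroid transcription factor genes GATA1 and KLF1 lay below the floor on both arrays, as did AHSP, a chaperone of alpha globin. ALAS2, the erythroid enzyme of haem synthesis, was 173 in N2 and 96.5 in N1, and its EB signal was 789.

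Secreted proteins of liver and yolk sac had the most lower members of any list. Of 36 measured, 1 was at least 2-fold higher in N2 and 24 at least 2-fold lower (median -1.16), where 6.53% of all genes were lower. Of the 24 lower members, 10 had another measured probe set. Every such probe set was lower too for 10 of them, and 7 had one past 2-fold. The 3 chains of fibrinogen, the clotting protein, were all lower. FGG had signals of 6.9 at ESC, 12758 at EB, 8274 at N1, 773 at N2 and 21.7 at N3, and was 10.7-fold lower in N2 than in N1. FGA had a signal of 1011 in N2 and 7857 in N1 and was 7.77-fold lower (other probe sets -2.47 and -2.42). FGB had a signal of 3222 in N2 and 15461 in N1 and was 4.80-fold lower (other probe set -3.96). Several protease inhibitors and acute-phase proteins were lower, though not every one. SERPIND1, heparin cofactor II, had a signal of 166 in N2 and 1344 in N1 and was 8.09-fold lower. ITIH1, which binds hyaluronan, had a signal of 293 in N2 and 1768 in N1 and was 6.03-fold lower. AHSG, fetuin A, had a signal of 1721 in N2 and 6691 in N1 and was 3.89-fold lower. SERPINC1, antithrombin, had a signal of 134 in N2 and 448 in N1 and was 3.35-fold lower (other probe set -1.54). SERPINA5, the protein C inhibitor, was 1168 in N2 and 986 in N1, and HP, the acute-phase protein haptoglobin, was 133 in N2 and 98.9 in N1. Lipid carriers were also among the lower members. APOE, made by liver, glia and macrophages, had a signal of 1819.8 in N2 and 8353 in N1 and was 4.59-fold lower (other probe sets -2.74 and -2.30). APOA1, the main protein of high-density lipoprotein, had a signal of 4889.6 in N2 and 16909 in N1 and was 3.46-fold lower. APOA4, an intestinal apolipoprotein, had a signal of 103 in N2 and 413 in N1 and was 3.99-fold lower. MTTP, which loads lipid onto lipoproteins, had a signal of 902 in N2 and 1996 in N1 and was 2.21-fold lower (other probe set -0.40). PLG, plasminogen, had a signal of 811 in N2 and 2509 in N1 and was 3.09-fold lower (other probe sets -2.27 and -2.23).

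Some bright members of this list were just short of 2-fold lower and were still among its brightest genes in N2. SERPINA1, alpha-1 antitrypsin, was 6871 in N2 and 13569 in N1 (other probe sets -2.23, -0.32 and -0.17). SPINK1, a trypsin inhibitor of gut and pancreas, was 6248 in N2 and 12251 in N1. APOC3, an apolipoprotein of triglyceride-rich particles, was 4774 in N2 and 9328 in N1 (other probe sets -1.41 and -0.31). AFP, the fetal albumin-like protein, was 410.3 in N2 and 484 in N1. APOH, a phospholipid-binding plasma protein, was the 1 member past 2-fold the other way, at 275 in N2 and 115 in N1, which is 2.40-fold higher. Except for APOE and AFP, the genes of this list named here with lower values in N2 were lower again by value in N3, FGA at 81.3 and APOA1 at 456. ALB and TTR were not analysed here.

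In the list of factors that direct endoderm 0 were at least 2-fold higher in N2 and 6 at least 2-fold lower, of 17 measured (median -0.65). CEBPA, a liver and fat factor, had a signal of 745 in N2 and 3568 in N1 and was 4.79-fold lower (other probe sets -1.70 and -0.69). FOXA1, a pioneer factor of endoderm, had a signal of 1341 in N2 and 2709 in N1 and was 2.02-fold lower. SOX17, of early endoderm and arteries, had a signal of 142 in N2 and 289 in N1 and was 2.04-fold lower. CDX2, a factor of hindgut and trophoblast, had a signal of 565 in N2 and 1224 in N1 and was 2.17-fold lower (other probe set -1.56). PROX1, a factor of liver, lymphatics and neural progenitors, had a signal of 17.8 in N2 and 394 in N1 and was at least 3.94-fold lower. With no floor its log2 ratio was 0.04, since another of its probe sets then represents it. FOXA2, a factor of both endoderm and floor plate, was 473 in N2 and 315 in N1. Its value thus lay on the other side of N1 from those of FOXA1, SOX17 and CEBPA.

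Of 15 measured genes of simple epithelia, 1 was at least 2-fold higher in N2 and 6 at least 2-fold lower (median -0.86). KRT8, a keratin of simple epithelia, had signals of 4238 at ESC, 2414 at EB, 2586 at N1, 193 at N2 and 314 at N3. It was 13.4-fold lower in N2 than in N1. KRT18, its filament partner, was 869 in N2 and 1097 in N1. KRT19, another simple keratin, had a signal of 2889 in N2 and 7979 in N1 and was 2.76-fold lower (other probe sets -3.53 and -2.31). VIL1, the microvillus protein villin, had a signal of 209 in N2 and 1048 in N1 and was 5.01-fold lower (other probe sets -1.18 and -0.91). CDH17, a gut cadherin, had a signal of 212 in N2 and 709.8 in N1 and was 3.35-fold lower. EPCAM, an adhesion molecule of epithelia and stem cells, had a signal of 1763 in N2 and 3563 in N1 and was 2.02-fold lower. ST14, a membrane protease, was the higher member and its probe sets differed in sign. It had a signal of 773 in N2 and 225 in N1 and was 3.44-fold higher (other probe sets -0.32 and 0.29). The liver and yolk sac markers summed to 8522 in N2 and 32854 in N1, and the epithelial markers to 2843 in N2 and 7250.0 in N1.

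Of 10 measured endothelial genes, 0 were at least 2-fold higher in N2 and 2 at least 2-fold lower (median -0.32). TIE1, a vessel receptor kinase, had a signal of 212 in N2 and 516 in N1 and was 2.43-fold lower. ENG, a TGF-beta coreceptor of vessels, had a signal of 112 in N2 and 254 in N1 and was 2.26-fold lower. The junction genes PECAM1 and CDH5 were within 2-fold. PECAM1 was 300.3 in N2 and 523 in N1 (other probe set -1.25), and CDH5 was 254 in N2 and 311 in N1. In the trophoblast and amnion list 1 was at least 2-fold higher in N2 and 3 at least 2-fold lower, of 13 measured (median -0.01; 0.08 with equal medians, -0.59 with hybridisation-control scaling and -0.38 with the second brightest probe sets). Its shares were 7.69% higher and 23.1% lower. PGF, placental growth factor, had a signal of 223 in N2 and 686 in N1 and was 3.07-fold lower. The other lower members, CDX2 and HAND1, stand in the endoderm and heart lists. TFAP2A, a factor of trophoblast and of neural crest, had a signal of 5526 in N2 and 2165 in N1 and was 2.55-fold higher (other probe set -0.11). It was also the 1 gene past 2-fold of 16 measured in the neural crest and glial list (median 0.24; -0.34 with hybridisation-control scaling and -0.16 with the second brightest probe sets). That 1 gene is 6.25% of the list, near the 5.06% of all measured genes that were 2-fold higher. SOX10, a factor of crest and oligodendrocytes, was 724 in N2 and 498 in N1 (other probe set -0.46). OLIG2, of oligodendrocyte progenitors, was 197 in N2 and 64.7 in N1. Few leukocyte genes were measured. Of 14 with a probe set, 8 lay below the floor on both arrays, PTPRC and CSF1R among them. Of the 6 measured, 1 was at least 2-fold higher in N2 and 0 at least 2-fold lower (median 0.01; -0.22 with hybridisation-control scaling and -0.31 with the second brightest probe sets). CD68, a lysosomal protein of macrophages and other cells, had a signal of 1734 in N2 and 532 in N1 and was 3.26-fold higher (other probe set -0.31).

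Genes of connective tissue matrix were mostly level or higher. In the mesenchymal matrix list 8 were at least 2-fold higher in N2 and 0 at least 2-fold lower, of 28 measured (median 0.57; 0.00 with hybridisation-control scaling and -0.02 with the second brightest probe sets). ASPN and OGN are small leucine-rich proteoglycans of tendon and bone matrix. ASPN had signals of 5.3 at ESC, 17.5 at EB, 192 at N1, 1482 at N2 and 3679.8 at N3, and was 7.71-fold higher in N2 than in N1. OGN had signals of 56.8 at ESC, 72.4 at EB, 152 at N1, 1097 at N2 and 1526 at N3, and was 7.22-fold higher (other probe set 2.28). CCN2, a matrix protein induced by TGF-beta, had a signal of 5628 in N2 and 1648 in N1 and was 3.42-fold higher (other probe sets -1.0 and 0.45). FBN1, a microfibril protein, had a signal of 7065 in N2 and 2307 in N1 and was 3.06-fold higher (other probe sets -0.26, -0.03 and 0.72). COL1A2, a chain of type I collagen, had a signal of 3269 in N2 and 1584 in N1 and was 2.06-fold higher (other probe set 1.63). For CCN2 and FBN1 the other probe sets lay on both sides of 0, while that of COL1A2 had the same sign. FBN2 and THY1 also passed 2-fold on the brightest probe set only. FBN2 had a signal of 4700.0 in N2 and 2328 in N1 and was 2.02-fold higher (other probe set -0.02), and THY1, a surface protein of fibroblasts and neurons, had a signal of 1174 in N2 and 582 in N1 and was 2.02-fold higher (other probe set -0.68). TAGLN, a smooth muscle protein, had a signal of 6112 in N2 and 2492 in N1 and was 2.45-fold higher (other probe set 0.58). Outside the list, ACTG2, a smooth muscle actin close in sequence to other actins, had signals of 24431 at ESC, 629 at EB, 616 at N1, 6600.3 at N2 and 5346 at N3. It was 10.7-fold higher in N2 than in N1 (other probe set 0.74). COL12A1, a collagen on fibril surfaces, had a signal of 3432 in N2 and 468 in N1 and was 7.34-fold higher. Bright matrix genes were within 2-fold. LUM, the proteoglycan lumican, was 17003 in N2 and 14991 in N1 (other probe sets -0.27 and 0.05). COL1A1, the other chain of type I collagen, was 10541 in N2 and 8634 in N1.

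The step was meant to expand cells, and genes of cell division were examined with that in view. Of 35 measured, 2 were at least 2-fold higher in N2 (5.71%) and 1 at least 2-fold lower (2.86%). Over all measured genes these shares were 5.06% and 6.53%, so the higher share of the list was near that of all genes. Of the 35, 27 had a log2 ratio below 0 (median -0.32). MKI67, the proliferation antigen, was 978 in N2 and 1287 in N1 (other probe sets -0.97 and -0.80). TOP2A, which untangles DNA, was 5421 in N2 and 9027 in N1 (other probe set -0.50). MCM2, a subunit of the replication helicase, was 2788 in N2 and 3879 in N1. CCNE1, the cyclin of S-phase entry, had a signal of 647 in N2 and 1378 in N1 and was 2.13-fold lower. The 2 higher members restrain division. CDKN2A had a signal of 681 in N2 and 227 in N1 and was 3.0-fold higher, and CDKN1A had a signal of 2483 in N2 and 1218 in N1 and was 2.04-fold higher. Genes of cell division as a list therefore did not stand higher in N2 on these arrays.

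In the pluripotency list 2 were at least 2-fold higher in N2 and 1 at least 2-fold lower, of 10 measured (median 0.14; -0.44 with hybridisation-control scaling). POU5F1, which marks undifferentiated cells, had signals of 28621 at ESC, 906 at EB, 249 at N1, 80.3 at N2 and 14.7 at N3, and was at least 2.49-fold lower in N2 than in N1. NANOG, another such factor, had signals of 1047 at ESC, 1178 at EB, 2145 at N1, 1169 at N2 and 2155 at N3, a course in which the stem cell array was lowest. SOX2 and KLF4 were the higher members, and both act in other tissues. KLF4 had a signal of 1073 in N2 and 389.8 in N1 and was 2.75-fold higher (other probe set 0.24). Among insulin-like growth factors, their binding proteins and imprinted genes 1 was at least 2-fold higher in N2 and 4 at least 2-fold lower, of 22 measured (median 0.17; -0.41 with hybridisation-control scaling and -0.64 with the second brightest probe sets). The higher share was 4.55%, near the 5.06% of all measured genes, and the lower share 18.2%, against 6.53%. The 2 ligands differed in opposite directions. IGF1 had a signal of 2823 in N2 and 1240.4 in N1 and was 2.28-fold higher (other probe set 1.12). IGF2, the imprinted fetal growth factor, had a signal of 696 in N2 and 1875 in N1 and was 2.69-fold lower. The binding proteins IGFBP4 and IGFBP5 were lower. IGFBP5 had a signal of 70.6 in N2 and 454 in N1 and was at least 4.54-fold lower, and IGFBP4 had a signal of 1205 in N2 and 2956 in N1 and was 2.45-fold lower. IGF2BP1, a fetal RNA-binding protein, had a signal of 117 in N2 and 522 in N1 and was 4.48-fold lower (other probe set -0.64). H19, an imprinted RNA, was 51046 in N2 and 41387 in N1 (other probe sets -2.93 and -0.96), so that its probe sets differed widely. DLK1, an imprinted Notch ligand homologue, was 23693 in N2 and 20994 in N1.

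Metabolic and housekeeping lists had medians between -0.02 and 0.25, which moved with the scaling and the probe set used. Of 29 measured glycolysis and hypoxia genes, 4 were at least 2-fold higher in N2 and 2 at least 2-fold lower (median 0.25; -0.32 with hybridisation-control scaling and -0.06 with the second brightest probe sets). ADM, the hypoxia-induced peptide adrenomedullin, had a signal of 1037 in N2 and 364 in N1 and was 2.85-fold higher. DDIT4, an inhibitor of mTOR induced by stress and hypoxia, had a signal of 9848 in N2 and 4251 in N1 and was 2.32-fold higher. GPI, a glycolytic enzyme, had a signal of 12711 in N2 and 4805 in N1 and was 2.65-fold higher (other probe sets 0.02 and 0.31). PFKL and TPI1 are enzymes of the same pathway and were lower. PFKL had a signal of 405 in N2 and 997 in N1 and was 2.46-fold lower, and TPI1 had a signal of 2406 in N2 and 5154 in N1 and was 2.14-fold lower (other probe set 0.02). Of 16 measured cholesterol synthesis genes, 0 were at least 2-fold higher in N2 and 2 at least 2-fold lower (median -0.02; 0.07 with equal medians, -0.60 with hybridisation-control scaling and -0.76 with the second brightest probe sets). DHCR7, which makes cholesterol from its last precursor, had a signal of 440.1 in N2 and 1008 in N1 and was 2.29-fold lower. Of 19 measured stress and cell death genes, 2 were at least 2-fold higher in N2 and 0 at least 2-fold lower (median 0.06; -0.52 with hybridisation-control scaling and -0.25 with the second brightest probe sets). They were CDKN1A and TXNIP, 10.5% of the list against 5.06% of all measured genes. TXNIP, a thioredoxin inhibitor, had a signal of 10268 in N2 and 4306 in N1 and was 2.38-fold higher (other probe sets -1.28, -1.04, -1.04 and -0.25), so that 1 of its probe sets opposed the rest. Of 33 measured ribosomal protein genes, 0 were at least 2-fold higher in N2 and 1 at least 2-fold lower (median 0.02; -0.56 with hybridisation-control scaling).

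The remaining genes with the 20 largest ratios and the 10 largest bounds above N1 belong to none of the lists. GNAO1, a G protein alpha subunit abundant in brain, had a signal of 3279 in N2 and 427 in N1 and was 7.69-fold higher. CSPG5, a brain chondroitin sulphate proteoglycan, had a signal of 1469 in N2 and 201 in N1 and was 7.32-fold higher. PCDH8, a protocadherin, had a signal of 739 in N2 and 102 in N1 and was 7.26-fold higher. MAB21L1, a gene of eye and brain development, had a signal of 1789.6 in N2 and 209.8 in N1 and was 8.53-fold higher. TMEM163, a zinc transporter of synaptic vesicles, had a signal of 1045 in N2 and 161 in N1 and was 6.50-fold higher (other probe set 0.61). OTUD3, a deubiquitinase, had a signal of 916.5 in N2 and 107 in N1 and was 8.53-fold higher. DOK5, a docking protein of receptor tyrosine kinases, had a signal of 1505 in N2 and 239.7 in N1 and was 6.28-fold higher (other probe set 1.24). IRF8, a factor of myeloid blood cells, had a signal of 764 in N2 and 109 in N1 and was 7.02-fold higher (other probe set -0.33), with opposite signs on its probe sets. Among genes below the floor in N1, LHX9, a LIM-homeobox factor of brain and gonad, had the largest bound. It had a signal of 2125 in N2 and 85.2 in N1 and was at least 21.2-fold higher (other probe set 0.59). IL1B, an inflammatory cytokine, had a signal of 1109 in N2 and 35.7 in N1 and was at least 11.1-fold higher (other probe sets 0.27 and 1.38). SEZ6, a neuronal membrane protein, had a signal of 550.2 in N2 and 76.0 in N1 and was at least 5.50-fold higher. LINGO1, an inhibitor of axon growth, had a signal of 505 in N2 and 96.7 in N1 and was at least 5.05-fold higher (other probe set 1.21). PI15, TOX2, GALNT1 and MGAT5B had bounds of 8.59, 6.48, 5.70 and 5.54 times.

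At the lower end, further genes with the largest ratios and bounds also stood outside the lists. BHMT, which remethylates homocysteine in liver, had a signal of 182 in N2 and 1034 in N1 and was 5.67-fold lower. DIO1, the thyroxine deiodinase, had a signal of 172 in N2 and 864 in N1 and was 5.02-fold lower. DPP4, a membrane peptidase, had a signal of 158 in N2 and 797 in N1 and was 5.05-fold lower. CDK6, a cyclin-dependent kinase, had a signal of 161 in N2 and 859 in N1 and was 5.35-fold lower (other probe set -0.77). IL18, a cytokine made by epithelia, had a signal of 94.7 in N2 and 399 in N1 and was at least 3.99-fold lower. ZWILCH, a kinetochore protein of the mitotic checkpoint, had a signal of 152 in N2 and 954 in N1 and was 6.28-fold lower (other probe set -0.83). ZNF253 was at least 5.13-fold lower (other probe set -1.04), HYCC1 at least 5.04-fold and TMT1A at least 3.89-fold. LOC709412, named by its locus number alone, was 5.86-fold lower, and LOC707841 was 5.33-fold lower (other probe set -0.26). Of ratios that are not bounds, the 20 largest ran from 6.28-fold to 28.3-fold higher, and the 20 at the other end from 5.01-fold to 17.6-fold lower. The 5 genes nearest to 2-fold had folds from 2.0022 to 2.0054 just inside the higher calls and from 1.9973 to 1.9998 just outside. On the lower side these were 2.0010 to 2.0051 inside and 1.9972 to 1.9992 outside.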

How the data were processed

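RNA from 5 culture stages of rhesus line 366.4 was hybridised to 1 Affymetrix rhesus array each. The deposited values are intensity values per probe set on a linear scale, 1 column per stage, which the authors made with GCOS 1.0, per the submitters' processing notes; the algorithm is not given in the sources used here. The deposited columns had 2% trimmed means of 199.1 to 199.3.

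A factor per array brought the 2% trimmed mean over non-control probe sets to 500, values under 100 were set to 100, and log2 was taken. Of 52865 probe sets, 24969 carried exactly 1 gene symbol in the platform annotation, 361 several and 27535 none. For a gene with several, the one of highest mean log2 over the 5 arrays was used. Where 1 array was at the floor the ratio is given as "at least", and where both were, no ratio is given. Genes named in the text are the 20 largest ratios each way among genes whose dimmer signal was at least 100 and whose brighter was at least 200, the 10 largest bounds each way, members of the gene lists, and a set of key neural, serotonin, FGF and muscle genes. The 29 lists hold 907 genes, of which 655 have a probe set and 30 stand in more than 1 list. The members and lists were chosen with earlier results of these data known.

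With 1 array per stage there is no test, SD or interval, and the number of arrays limits the precision. The ratio step was tested on simulated data. Alternatives were the values as deposited, quantile, equal-median and hybridisation-control scaling, other floors or none, other probe set rules and a 4-fold threshold. Python 3.11.15, numpy 2.4.6, pandas 2.3.3 and matplotlib 3.10.9 were used. Sequences were not printed, since no sequence table or genome was used here.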

Additional observations from a re-analysis of the deposited data

Results flagged for a closer look

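Outside the named genes, 26707 probe sets with the macaque prefix in their ID carry no gene name here, and they were not used in the comparison. The 27535 probe sets without a symbol also include 145 controls and 683 with other IDs, which were left out. Of the 26707, 11966 lay above the floor in N2 or N1. Of these, 1177 were at least 2-fold higher in N2 (9.84%) and 514 at least 2-fold lower (4.3%), with a median log2 ratio of 0.10. Among named genes these shares were 5.06% and 6.53%, and the median was -0.04. The units are unlike, since a named gene counts once by its brightest probe set and the unnamed figures count every probe set. The difference between the shares was not tested. The unnamed probe sets drew attention because the gene comparison leaves them out.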

How the results depend on the processing

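No paired analysis was possible because each stage has 1 array, and for the same reason no array could be left out. With the values as deposited (same floor of 100) the counts were 354 higher and 407 lower, and at a 4-fold threshold 71 higher and 51 lower. Scaling to the hybridisation controls gave 187 higher and 2543 lower. The median over a gene's probe sets gave 354 higher, and the second brightest probe set 163 higher. The 16 other alternative counts stayed within 1.5 times of 534 higher and 689 lower. Of the named genes that were at least 2-fold apart, CD68 (-0.31), DKK2 (-0.16), EBF1 (-0.07), FBN1 (-0.03), FBN2 (-0.02), FGFBP3 (-0.19), GAD2 (-0.50), HES5 (-0.42), IRF8 (-0.33), SLC1A3 (-0.11), THY1 (-0.68) and TPI1 (0.02) had the opposite sign on the second brightest probe set, and TPI1 (0.02) also once probe sets that can bind more than 1 transcript were left out. PAX8 was -0.21 with a floor of 50, with no floor and on the second brightest probe set, and PROX1 was 0.04 with no floor. DKK3 (-0.03) and ST14 (-0.32) turned with the median of probe sets. TFAP2A was -0.11 with that median and on the second brightest probe set, and TXNIP was -1.04 with the median and -0.25 on the second brightest. These turns come from which probe set represents the gene, and what makes the probe sets differ was not tested. The medians of the neural progenitor, proneural, neuronal cytoskeleton and synaptic lists were above 0, and those of the heart, liver and yolk sac, endoderm, epithelium and cell division lists below 0, under all 11 alternatives run for them. Low signal is limited by the floor: 505 genes were above it in N2 alone and 664 in N1 alone, and their ratios are bounds.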

Other observations

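Among the 20 lowest ratios and the 10 lowest bounds were genes in none of the lists that act on RNA, transcription or translation. The 6 described here were picked out after their values were seen. ZNF253, by its name a zinc-finger gene and also among these bounds, is not 1 of the 6. Its signal was lowest at EB, at 72.0, against 91.6 in N2 and 513 in N1. ELOF1, a transcription elongation factor, had signals of 2453 at ESC, 553 at EB, 1732 at N1, 217 at N2 and 1173 at N3, and was 7.97-fold lower in N2 than in N1. HNRNPC, a nuclear RNA-binding protein, had signals of 7705 at ESC, 3597 at EB, 5949 at N1, 1065 at N2 and 3596 at N3, and was 5.59-fold lower. EIF3L, a subunit of a translation initiation factor, had signals of 11561 at ESC, 2975 at EB, 5561 at N1, 1078 at N2 and 2465 at N3, and was 5.16-fold lower. MFAP1, a spliceosome protein, had a signal of 143 in N2 and 936 in N1 and was 6.54-fold lower. SUPT16H, a histone chaperone of transcribed genes, had a signal of 88.4 in N2 and 531 in N1 and was at least 5.31-fold lower. PHAX, an export adaptor for small nuclear RNAs, had a signal of 70.7 in N2 and 499 in N1 and was at least 4.99-fold lower (other probe set -0.84). ELOF1, HNRNPC and EIF3L each had their lowest signal in N2, and the actin 3' to 5' ratio was highest on that array, at 1.73 at ESC, 15.19 at EB, 5.43 at N1, 25.21 at N2 and 8.63 at N3. The part of RNA integrity in these differences was not tested. These genes were named by the rule for the lowest ratios and bounds. That rule favours genes with a low N2 signal, so a lowest value in N2 is in part set by it. The remark on their order over the 5 arrays was made after their values were seen.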
